A study of Mus musculus with 23 samples.

Results

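The keratin genes Krt7, Krt8, Krt18, Krt19, Krt20, Krt23 and Krt80 were followed in pancreatic ductal adenocarcinoma cells of the mouse, by looking up their symbols in the table of raw counts. All 7 were among its 27207 genes, had a count in each of the 23 libraries and passed the filter on low counts, which kept 11144 genes. Bulk RNA sequencing of 3' ends, with a unique molecular identifier (UMI) on each captured molecule, compared tumor cells in 2D culture with organoids in floating collagen gels or in Matrigel, a matrix extracted from a mouse tumor. Levels are CPM, counts scaled to a common library size, with TMM factors that correct for differences in composition.

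The KC cells came from mouse 9591 and carried Ptf1a Cre/+, with Cre driven from the Ptf1a gene of pancreatic progenitors and acinar cells. They were sequenced as 2D cells (n = 6), as collagen organoids at day 7 (n = 3) and day 13 (n = 5) and as Matrigel organoids at day 13 (n = 3), all in a first batch, and as collagen organoids at day 13 in a second batch (n = 3). The KPC cells came from mouse 14390, carried Pdx1 Cre/+ and were sequenced as collagen organoids at day 13 in the second batch (n = 3). Every group was of tumor cells, and no normal ductal cells are among the libraries. The batches are those named in the labels. Each genotype was a single cell line, so genotype, Cre driver and line cannot be told apart. Lysis was direct for 2D cells, whereas the matrix around organoids was first dissolved with collagenase, so that culture and handling cannot be told apart either. The study describes its profiles of Matrigel (n = 3), day 13 collagen (n = 5) and day 7 collagen (n = 3) organoids as separate experiments. No source used here says so for the libraries of 2D cells, of the second KC batch or of KPC. In comparisons with those groups the p-values may measure technical spread alone.

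Keratins are the intermediate filament proteins of epithelial cells. A type II keratin pairs with a type I keratin to build the filament, and Krt8 and Krt18 are the founding pair of simple epithelia such as ducts, acini and intestine. Krt7 (type II) and Krt19 (type I) are added in ductal cells and are routine markers of pancreatic ducts and of the tumors that resemble them. Krt20 (type I) marks differentiated intestinal and urothelial surface cells. Krt23 (type I) and Krt80 (type II) are less studied members of the family. Filaments end on desmosomes between cells and on hemidesmosomes at the matrix, through linker proteins of the plakin family.

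The type II genes and Krt18 lie on chromosome 15 and the other type I genes on chromosome 11 (GRCm38, GENCODE M21). Krt80 spans 101347444 to 101370162 on the minus strand, Krt7 101411043 to 101430313 on the plus strand, Krt8 101996698 to 102004482 on the minus strand and Krt18 102028180 to 102032027 on the plus strand. On chromosome 11, Krt20 spans 99428403 to 99438150, Krt23 99477974 to 99493137 and Krt19 100140810 to 100148665, all on the minus strand. Krt8 and Krt18 are 23.7 kb apart and Krt20 and Krt23 39.8 kb apart, in both cases with no annotated gene between them. Krt7, Krt8 and Krt80 overlap antisense or noncoding genes on the opposite strand, and reads from such a pair cannot be told apart where counting ignores strand, which the sources used here do not state. The annotated copy Krt8-ps took 28 counts over all libraries, against 86669 for Krt8.

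The sequences before the starts of Krt20 and Krt23 are shown because these neighbors on the same strand moved in opposite directions between day 7 and day 13. They are from RefSeq (GRCm38.p6) and run 5′ to 3′ toward the start, Krt20 being chr11:99438154-99438403 and Krt23 chr11:99493138-99493370, both of the minus strand. Capitals mark matches, on either strand, to 5 motifs searched for in the 250 bases before the start, namely TATAAA (the TATA box), GGAATG (a core of TEAD binding sites), TGANTCA (the AP-1 site), CACGTG (an E-box, read the same on both strands) and GGGCGG (the GC box).
Krt20: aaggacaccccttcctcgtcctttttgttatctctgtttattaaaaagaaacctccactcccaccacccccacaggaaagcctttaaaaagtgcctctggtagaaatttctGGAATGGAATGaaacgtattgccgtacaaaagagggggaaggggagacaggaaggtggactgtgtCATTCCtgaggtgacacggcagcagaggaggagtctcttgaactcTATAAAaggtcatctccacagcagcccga
Krt23: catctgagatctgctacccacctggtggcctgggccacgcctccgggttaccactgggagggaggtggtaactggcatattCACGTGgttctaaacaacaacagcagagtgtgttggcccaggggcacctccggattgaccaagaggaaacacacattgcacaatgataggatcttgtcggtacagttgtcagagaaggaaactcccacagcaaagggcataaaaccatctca

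The Krt20 window held TATAAA from 29 to 24 bases before the start. It also held 3 matches to GGAATG, of which the first 2 share a base and the third is on the opposite strand. TATAAA was in 12.4% and GGAATG in 12.6% of the 32851 windows of the same length in the table. The Krt23 window held neither and had a CACGTG, which was in 6.02% of windows. The Krt8 and Krt18 windows matched none of the 5 motifs, and the Krt7 window held 4 matches to GGGCGG, found in 32.7% of windows. The RefSeq starts differ from the GENCODE positions given above. Of the 250 bases, those outside the gene by GENCODE were 0 for Krt7, 110 for Krt8, 214 for Krt18 and 233 for Krt23. The Krt7 matches thus lie inside the annotated gene, and the Krt23 sequence is printed for its 233 bases alone. Of the 7 genes 5 had a window in the table. These are matches of letters and do not show that a factor binds.

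The libraries held between 1221451 and 2471058 counts (median 1845921). No 2 replicates were alike within sampling noise. The 6 2D libraries fell into 2 sets: replicates 1 to 3 had 13.5% to 14% of their counts in the top 10 genes and TMM factors of 0.738 to 0.772, against 8.32% to 8.53% and 1.04 to 1.06 in replicates 4 to 6. Krt7, Krt8, Krt18, Krt19 and Krt20 were each lower in replicates 1 to 3 than in replicates 4 to 6 without overlap. The share of all genes split in this way was not counted, so the split cannot be read as a trait of these keratins. The sets differed well beyond the keratins, with a root mean square difference in log2 CPM over all tested genes of 0.728 to 0.808 between sets. Within replicates 1 to 3 it was 0.514 to 0.549, and within replicates 4 to 6 it was 0.350 to 0.396. Comparisons of the keratins with 2D cells are therefore given with all 6 and with each set, a split chosen after the data had been seen. As a check of the cell type, all 10 listed ductal genes (such as Epcam, Sox9 and Spp1) had counts in every group, with a summed level of 4060 to 16698 CPM. Most of that sum was Spp1, at 2605 to 15761 CPM, and the other 9 genes summed to 455 to 2718 CPM. At day 7, 9 of the 10 exceeded 3 counts in any library. Endothelial genes summed to at most 2.67 CPM, the 4 immune genes in the table to at most 36.6 CPM, the 3 acinar genes in the table to at most 20.4 CPM and fibroblast genes to 32.7 to 187 CPM. The 10 basal and squamous genes in the table summed to 597 to 3042 CPM, highest in KPC organoids, and Sprr1a alone reached 2974 CPM.

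The 7 keratins together took 1.07% to 1.42% of the counts of every organoid library, and 0.532% to 1.08% in 2D cells. Krt18 and Krt19 led in CPM in every group, Krt7 and Krt8 followed, Krt20 was lower, Krt23 was below Krt20, and Krt80 was lowest. Between genes, levels per kilobase of annotated exon again had Krt18 and Krt19 highest and Krt23 and Krt80 lowest in every group. In 2D cells the mean was 2025 CPM per kb for Krt18, 1266 for Krt19, 667 for Krt8, 241 for Krt7, 135 for Krt20, 61.6 for Krt23 and 1.25 for Krt80. The order between these ends depended on the scale. Krt7 stood above Krt8 by CPM in 2D cells and below it per kilobase. Krt20 was below Krt7 by CPM in every group but above it per kilobase in all 4 groups of day 13, at 461 against 161 CPM per kb in first-batch collagen and 451 against 252 in Matrigel. Each molecule was counted at its 3' end, so counts need not grow with exon length, and the order per kilobase is not a better one. The divisor was 7049 bases for Krt7, against 1958 for Krt8 and 1927 for Krt20. The order by CPM may still carry differences in capture between genes, which were not tested.

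**Figure D1:**
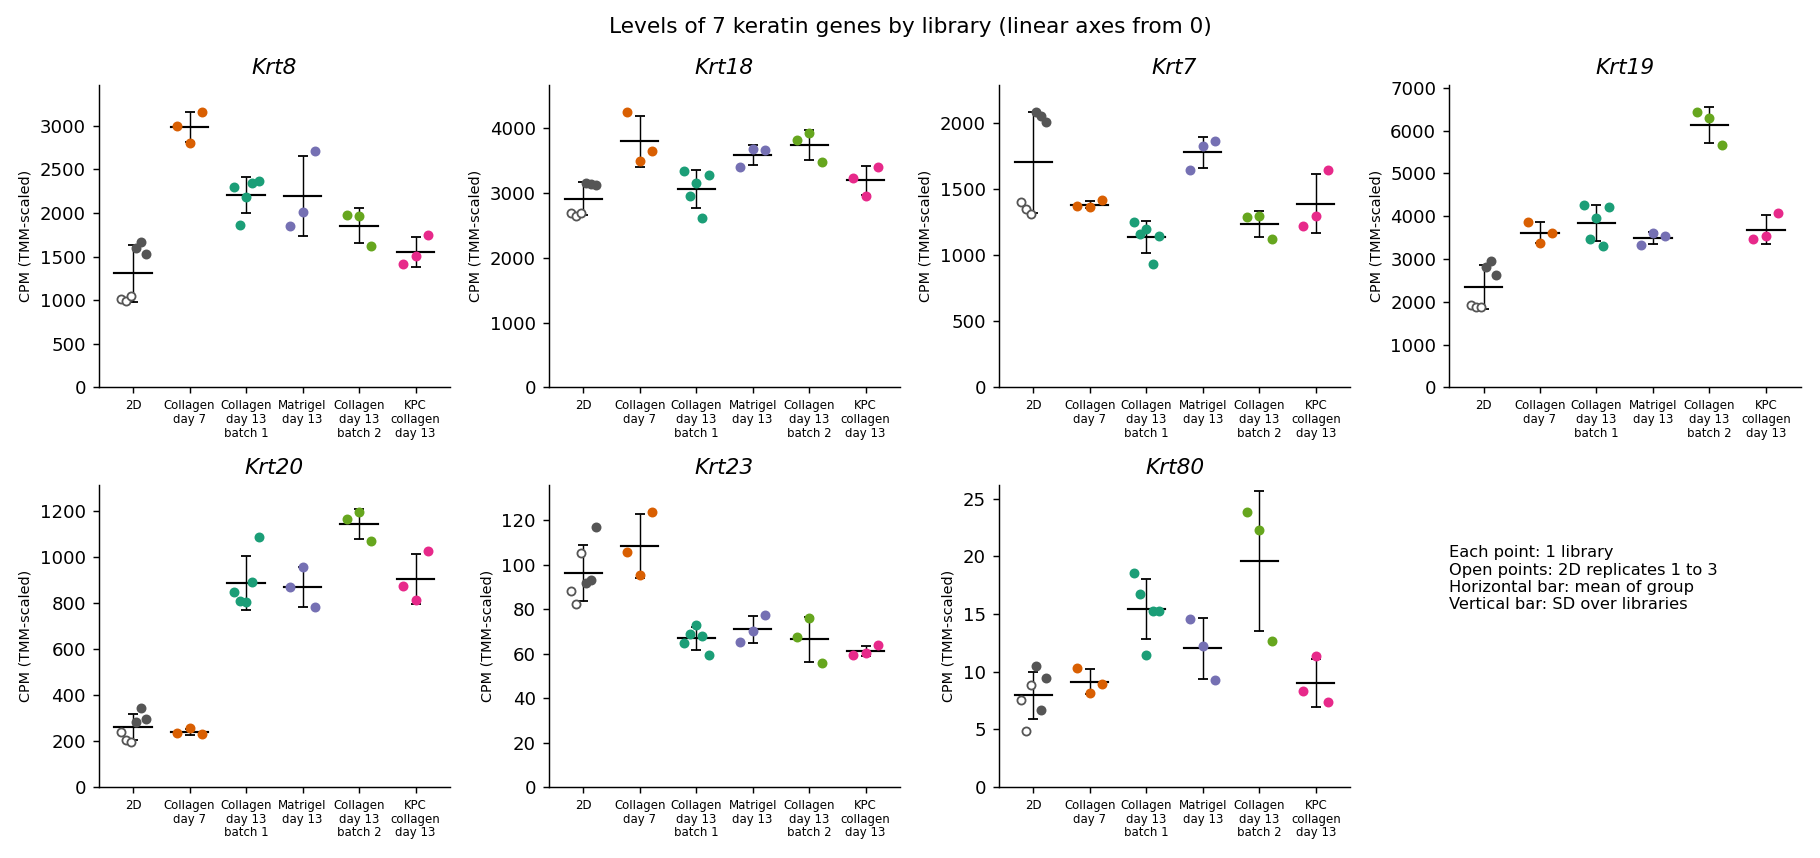
CPM with TMM scaling (vertical, linear from 0) of each keratin by group (horizontal), with 1 point per library, open for 2D replicates 1 to 3, a horizontal bar at the group mean and a vertical bar for the SD over libraries. Krt20 lies at 198 to 342 CPM in 2D and day 7 libraries and at 781 to 1194 CPM in all day 13 libraries, whatever the matrix or line.

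Between day 7 and day 13 in collagen, 5 of the 7 were called (adjusted p under 0.1, edgeR): Krt8, Krt18 and Krt23 were higher at day 7 and Krt20 and Krt80 lower. In this comparison 55.1% of all tested genes were called, 28.1% higher and 27.1% lower at day 7, so that the count is near the background. Groups did not overlap for 6 of the 7 keratins, against 48.3% of genes.

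Matrigel against collagen at day 13 gave 1 call, Krt7, which was higher in Matrigel, where 12.9% of tested genes were called, 6.62% higher and 6.29% lower in Matrigel. Krt7 and Krt18 did not overlap between the groups, a pattern found in 19.5% of genes.

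In 2D cells against collagen organoids of day 7, Krt8, Krt18 and Krt19 were lower and no keratin was higher, 3 calls of 7 where 51.2% of genes were called, 26.4% higher and 24.8% lower. These 3 did not overlap between the groups, against 32.3% of genes. Against collagen at day 13, 6 of 7 were called where 49.6% of genes were, 26.3% higher and 23.3% lower: Krt7 and Krt23 were higher in 2D cells, and Krt8, Krt19, Krt20 and Krt80 lower. All 6 were without overlap, against 20.3% of genes. In Matrigel against 2D cells 6 of 7 were again called, 5 higher in Matrigel and Krt23 lower, where 42.0% of genes were called, 20.1% higher and 21.9% lower. Here 5 keratins were without overlap, against 26.7% of genes. The calls against collagen at day 13 were the same 6 genes with either set of 2D libraries left out. In Matrigel against 2D cells 4 keratins were called without 2D replicates 1 to 3 (Krt8, Krt19 and Krt20 higher in Matrigel, Krt23 lower), and all 7 without replicates 4 to 6. Against day 7, 5 were called without replicates 1 to 3, with Krt7 and Krt20 now higher in 2D cells, and the same 3 without replicates 4 to 6.

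KPC against KC organoids in the second batch gave 2 calls, Krt19 and Krt80, both lower in KPC, where 19.9% of genes were called, 9.58% higher and 10.4% lower. Here 4 keratins did not overlap, against 37.3% of genes. The second against the first batch of the same KC condition gave 3 calls, Krt18, Krt19 and Krt20, all higher in the second batch, where 37.3% of genes were called, 19.3% higher and 18.1% lower. Here 2 keratins did not overlap, against 35.9% of genes. These comparisons share groups and are not independent of each other.

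**Figure D2:**
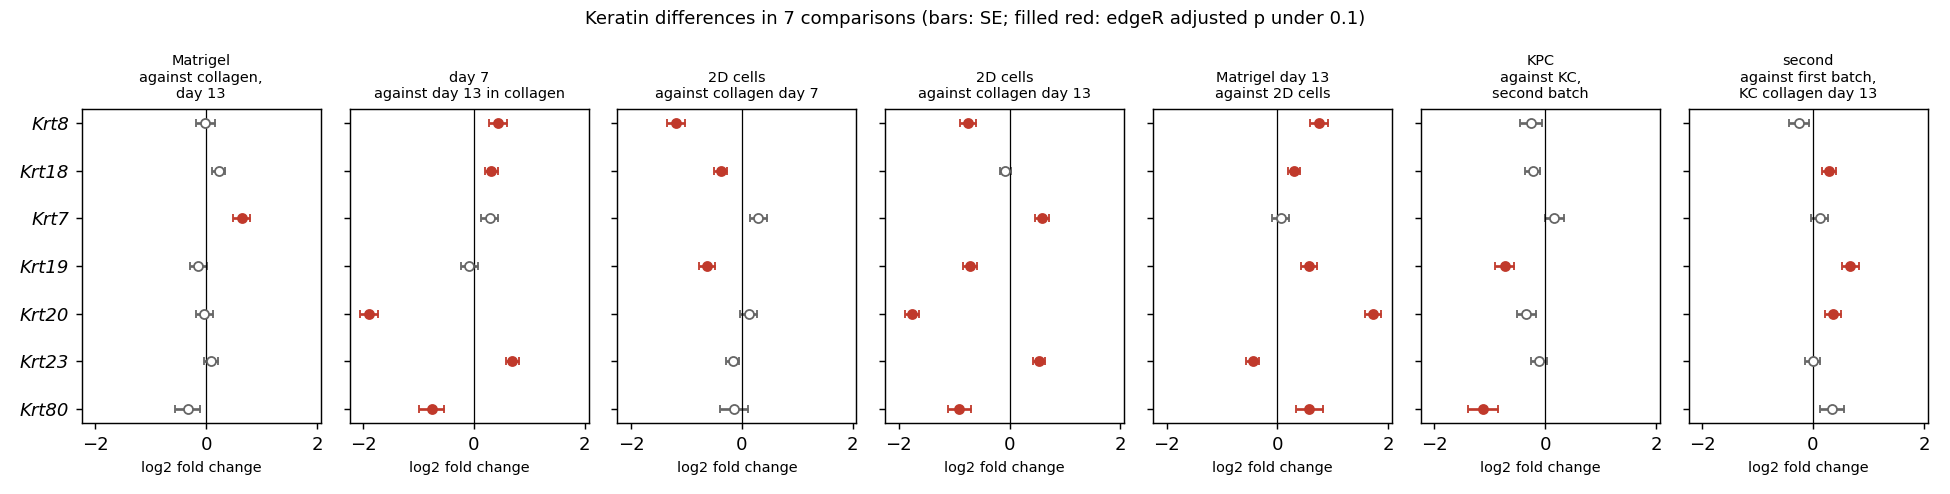
Log2 fold change (horizontal) with its standard error of each keratin (rows) in the 7 comparisons (panels), first-named group over second, filled red where the edgeR adjusted p was under 0.1. Krt7 is the only filled point for Matrigel against collagen at day 13, and Krt20 is the farthest from 0 between day 7 and day 13 in collagen.

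Krt8, the type II keratin of all simple epithelia, was highest at day 7 in collagen, at 2999, 2802 and 3152 CPM. The first-batch day 13 collagen libraries read 2298, 1864, 2179, 2337 and 2369 CPM, and the Matrigel libraries 1850, 2007 and 2712 CPM. The second batch gave 1973, 1968 and 1621 CPM in KC and 1409, 1504 and 1745 CPM in KPC organoids. 2D cells ran from 991 to 1666 CPM with a median of 1286. Every day 7 library was above every other library, and the remaining groups overlapped with a neighbor in this order. Krt8 was 1.35-fold higher at day 7 than at day 13 (log2 0.43, SE 0.17, adjusted p = 0.0375), and this call was lost without day 7 replicate 3 (adjusted p = 0.105). Scaling by library size alone lost it too (0.38, adjusted p = 0.173).

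Against collagen organoids of day 7, Krt8 was 2.28-fold lower in 2D cells (log2 -1.19, SE 0.16, adjusted p = 2.53e-06). The log2 difference was -0.88 without 2D replicates 1 to 3 and -1.55 without replicates 4 to 6, so its direction and call held in both sets while its size did not. Against day 13 it was 1.69-fold lower (log2 -0.76, SE 0.14, adjusted p = 0.000161), with -0.50 and -1.1 in the same order. Matrigel organoids were above 2D cells by 0.74 (SE 0.16, adjusted p = 0.00124), with 0.49 and 1.1. Between Matrigel and collagen the difference was -0.01 (SE 0.17, adjusted p = 0.981), and the highest Matrigel library, replicate 3, was above all 5 collagen libraries while replicate 1 was below all 5. Neither KPC against KC (-0.26, SE 0.19, adjusted p = 0.436) nor the second against the first batch (-0.25, SE 0.17, adjusted p = 0.286) was called for Krt8.

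Krt18, the type I partner of Krt8, varied least of the 7. Its level was 4242, 3494 and 3653 CPM at day 7 and 3343, 2958, 3146, 2606 and 3274 CPM at day 13 in collagen. Matrigel organoids had 3408, 3679 and 3658 CPM, and the second batch 3821, 3928 and 3483 CPM in KC and 3238, 2956 and 3399 CPM in KPC. In 2D cells it ran from 2651 to 3153 CPM with a median of 2910. The day 7 libraries were all above those of day 13 in the first batch, by 1.24-fold (log2 0.31, SE 0.12, adjusted p = 0.0329). Without day 7 replicate 1, the highest, that call was lost (0.21, adjusted p = 0.206), as it was against all 8 KC collagen libraries of day 13 (0.19, adjusted p = 0.218).

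Krt18 was 1.30-fold lower in 2D cells than at day 7 (log2 -0.38, SE 0.11, adjusted p = 0.00835), at -0.25 without 2D replicates 1 to 3 and -0.50 without replicates 4 to 6. Against day 13 it was -0.07 (SE 0.10, adjusted p = 0.573), with 0.0045 and -0.17 in the same order. All 3 Matrigel libraries were above the collagen libraries, but the difference of 0.22 (SE 0.12) had an adjusted p of 0.282. Over 2D cells, Matrigel organoids stood 0.30 higher (SE 0.11, adjusted p = 0.0438), a call lost without 2D replicates 1 to 3 (0.22, adjusted p = 0.104) and without Matrigel replicate 2 or 3 (adjusted p = 0.106 and 0.112). The second batch was 0.29 above the first (SE 0.12, adjusted p = 0.0661), a call lost without first-batch replicate 4 (adjusted p = 0.112) or second-batch replicate 2 (adjusted p = 0.18), and KPC was below KC without overlap at -0.23 (SE 0.13, adjusted p = 0.289).

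Krt7, the type II keratin of ducts, was 1647, 1828 and 1862 CPM in Matrigel organoids. In collagen it was 1254, 1162, 1196, 930 and 1148 CPM at day 13 in the first batch and 1372, 1361 and 1417 CPM at day 7. The 3 Matrigel libraries lay above all collagen libraries of both times, and day 7 lay above day 13 without overlap. Matrigel exceeded collagen at day 13 by 1.56-fold (log2 0.64, SE 0.15, adjusted p = 0.00748). With each of the 8 libraries left out in turn the log2 difference stayed between 0.59 and 0.69, with an adjusted p of at most 0.045. Day 7 exceeded day 13 by 0.28 (SE 0.16, adjusted p = 0.141).

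In the second batch Krt7 was 1287, 1296 and 1126 CPM in KC and 1225, 1297 and 1644 CPM in KPC organoids, which overlapped (log2 0.17, SE 0.18, adjusted p = 0.6). In 2D cells it split by set, at 1401, 1352 and 1309 CPM in replicates 1 to 3 and 2080, 2056 and 2008 CPM in replicates 4 to 6. Both sets were above day 13 collagen libraries of the first batch, by 1.5-fold in all (log2 0.58, SE 0.13, adjusted p = 0.000972), at 0.82 without replicates 1 to 3 and 0.27 without replicates 4 to 6. Replicates 4 to 6 were also above every Matrigel library and replicates 1 to 3 below every one. Krt7 in Matrigel against 2D cells was accordingly 0.06 (SE 0.15, adjusted p = 0.782) with all libraries, -0.17 (adjusted p = 0.239) without replicates 1 to 3 and 0.39 (adjusted p = 0.00348) without replicates 4 to 6. The same split decided 2D against day 7, at 0.30 (SE 0.15, adjusted p = 0.117) in all, 0.59 (adjusted p = 3.29e-05) without replicates 1 to 3 and -0.02 (adjusted p = 0.875) without replicates 4 to 6.

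Krt19, the type I keratin of ducts, stood apart in the second batch of KC organoids, at 6427, 6304 and 5656 CPM, above every other library. KPC organoids of the same batch had 3472, 3532 and 4067 CPM. The same KC condition in the first batch had 4265, 3471, 3950, 3314 and 4208 CPM. KPC was 1.66-fold below KC within the batch (log2 -0.73, SE 0.17, adjusted p = 0.00403), and KC of the second batch was 1.60-fold above KC of the first (log2 0.67, SE 0.15, adjusted p = 0.00122). Against all 8 KC collagen libraries of both batches, the KPC difference was -0.35 and was not called (adjusted p = 0.23). The KPC libraries thus overlapped with the first-batch KC libraries. KPC cells were sequenced in the second batch alone, so a difference from KC libraries that include the first batch mixes line with batch. The comparison within the second batch does not.

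Krt19 was 3871, 3374 and 3616 CPM at day 7 and 3330, 3607 and 3532 CPM in Matrigel, and both groups overlapped with collagen at day 13. Day 7 against day 13 was -0.09 (SE 0.15, adjusted p = 0.67) and Matrigel against collagen -0.14 (SE 0.15, adjusted p = 0.69). 2D cells were below every organoid library, at 1927, 1869 and 1889 CPM in replicates 1 to 3 and 2823, 2951 and 2627 CPM in replicates 4 to 6. They were 1.64-fold below day 13 collagen (log2 -0.71, SE 0.13, adjusted p = 8.09e-05), at -0.49 without replicates 1 to 3 and -0.999 without replicates 4 to 6. Against day 7 the value was -0.62 (SE 0.14, adjusted p = 0.00119), at -0.35 and -0.93 in the same order. Matrigel was 0.57 above 2D cells (SE 0.14, adjusted p = 0.00386), at 0.35 and 0.88, and each of these differences was called in either set.

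Krt20, the type I keratin of differentiated surface cells, moved most. Day 7 collagen organoids had 234, 255 and 231 CPM and the 2D cells 237, 204, 198, 284, 342 and 297 CPM. Collagen organoids of day 13 had 848, 810, 803, 890 and 1087 CPM, and Matrigel organoids 868, 956 and 781 CPM. The second batch had 1164, 1194 and 1070 CPM in KC and 873, 812 and 1024 CPM in KPC. All 14 day 13 libraries lay above all 9 libraries of 2D cells and day 7, with a gap from 342 to 781 CPM.

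Krt20 was 3.70-fold lower at day 7 than at day 13 (log2 -1.89, SE 0.16, adjusted p = 8.09e-10) and 3.39-fold lower in 2D cells than at day 13 (log2 -1.76, SE 0.13, adjusted p = 1.16e-10). In Matrigel it was 3.32-fold higher than in 2D cells (log2 1.73, SE 0.14, adjusted p = 2.07e-09). Without 2D replicates 1 to 3 and without replicates 4 to 6, the difference from day 13 was -1.56 and -2.04, and that of Matrigel from 2D cells 1.53 and 2.03. Matrigel and collagen at day 13 differed by -0.03 (SE 0.15, adjusted p = 0.945). 2D cells and day 7 differed by 0.13 (SE 0.15, adjusted p = 0.521) in all, with a call upward without replicates 1 to 3 (0.38, adjusted p = 0.00898) and -0.17 without replicates 4 to 6 (adjusted p = 0.272). KPC was below KC without overlap, but the -0.34 (SE 0.17) was not called (adjusted p = 0.195), and the second batch was 0.37 above the first (SE 0.15, adjusted p = 0.0643), a call lost on leaving out any of 4 single libraries, at an adjusted p of up to 0.167.

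Krt23, 39.8 kb from Krt20 on the same strand, went the other way. It was 106, 95.3 and 124 CPM at day 7 and 64.9, 69.1, 72.7, 68.1 and 59.4 CPM at day 13 in collagen. 2D cells had 88.1, 82.5, 105, 91.8, 93.1 and 117 CPM, and the 2 sets overlapped. Matrigel organoids had 65.3, 70.2 and 77.5 CPM, KC organoids of the second batch 67.5, 76.0 and 56 CPM, and KPC organoids 59.4, 60.4 and 63.9 CPM. Every day 13 library, whatever the matrix, batch or line, lay below every 2D and day 7 library.

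Krt23 was 1.62-fold higher at day 7 than at day 13 (log2 0.69, SE 0.12, adjusted p = 3.49e-05) and 1.44-fold higher in 2D cells than at day 13 (log2 0.53, SE 0.11, adjusted p = 0.000284). Matrigel was below 2D cells (log2 -0.45, SE 0.12, adjusted p = 0.00692). Both differences kept their call in either set, at 0.55 and 0.48 against day 13 and -0.47 and -0.39 for Matrigel against 2D cells, without replicates 1 to 3 and without replicates 4 to 6. The call for Matrigel against 2D cells was lost on scaling by library size alone (-0.17, adjusted p = 0.435). No difference was called between 2D and day 7 (-0.16, SE 0.12, adjusted p = 0.268, at -0.087 and -0.22 in the same order), Matrigel and collagen (0.08, SE 0.13, adjusted p = 0.796), KPC and KC (-0.12, SE 0.15, adjusted p = 0.677) or the batches (-0.01, SE 0.13, adjusted p = 0.97). Around the pair, the 20 nearest tested genes that are not keratins had a median log2 difference of 0.20 between day 7 and day 13, with 7 called higher and 4 lower at day 7.

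Krt80, a type II keratin, was near the limit of counting, with 5 to 40 counts a library. Day 13 collagen organoids had 18.5, 16.8, 11.5, 15.2 and 15.2 CPM and day 7 organoids 10.3, 8.14 and 8.95 CPM. Matrigel organoids had 14.6, 12.2 and 9.32 CPM, and 2D cells ran from 4.85 to 10.5 CPM with a median of 8.19. In the second batch KC had 23.8, 22.3 and 12.7 CPM and KPC 8.30, 11.4 and 7.39 CPM. The KPC libraries were all below those of KC, and day 7 and 2D libraries all below day 13 collagen of the first batch.

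Krt80 was 1.70-fold lower at day 7 than at day 13 (log2 -0.77, SE 0.23, adjusted p = 0.00819), 1.88-fold lower in 2D cells than at day 13 (log2 -0.91, SE 0.21, adjusted p = 0.00114) and 2.17-fold lower in KPC than in KC (log2 -1.12, SE 0.27, adjusted p = 0.00592). Without 2D replicates 1 to 3 and without replicates 4 to 6, the difference of 2D cells from day 13 was -0.83 and -1.1, called in both. In Matrigel it was 0.57 above 2D cells (SE 0.24, adjusted p = 0.0714), a call lost without 2D replicates 1 to 3 (0.50, adjusted p = 0.181), kept without replicates 4 to 6 (0.79, adjusted p = 0.0628) and lost on leaving out any of 4 single libraries. The -0.34 between Matrigel and collagen (SE 0.22) was not called (adjusted p = 0.421), nor was the 0.34 between the batches (SE 0.22, adjusted p = 0.258) or the -0.14 between 2D cells and day 7 (SE 0.26, adjusted p = 0.699), which was -0.006 without 2D replicates 1 to 3 and -0.35 without replicates 4 to 6.

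Ratios of counts within a library need no scaling, and they are given as descriptions. Krt7 to Krt19, the ductal type II over the ductal type I gene, was 0.727, 0.723, 0.693, 0.737, 0.697 and 0.765 in the 6 2D libraries, so that the 2 sets coincided although both genes differed between them. It was 0.495, 0.507 and 0.527 in Matrigel. In collagen it was 0.354, 0.403 and 0.392 at day 7, 0.294, 0.335, 0.303, 0.281 and 0.273 at day 13 in the first batch and 0.2, 0.206 and 0.199 in the second, and in KPC organoids 0.353, 0.367 and 0.404. 2D, Matrigel, day 7, first-batch and second-batch KC libraries were thus ordered without overlap, and KPC overlapped with day 7 alone.

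Krt8 to Krt18 did not keep that order. Its highest values were in collagen of the first batch, at 0.707, 0.802 and 0.863 at day 7 and 0.687, 0.630, 0.693, 0.897 and 0.724 at day 13, which overlapped. In 2D cells it was 0.375, 0.374 and 0.387 in replicates 1 to 3 and 0.507, 0.530 and 0.489 in replicates 4 to 6. Matrigel replicate 3, at 0.741, stood apart from the other 2 at 0.543 and 0.546. The second batch ran from 0.465 to 0.516 in KC and from 0.435 to 0.513 in KPC, all below the first-batch collagen libraries.

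Krt20 to Krt23 was 1.87 to 2.67 at day 7 and 1.88 to 3.68 in 2D cells. It was 11 to 18.3 in first-batch collagen at day 13, 10.1 to 13.6 in Matrigel, 15.7 to 19.1 in second-batch KC and 13.4 to 16.0 in KPC organoids. The ratio therefore separated all day 13 libraries from the rest.

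**Figure D3:**
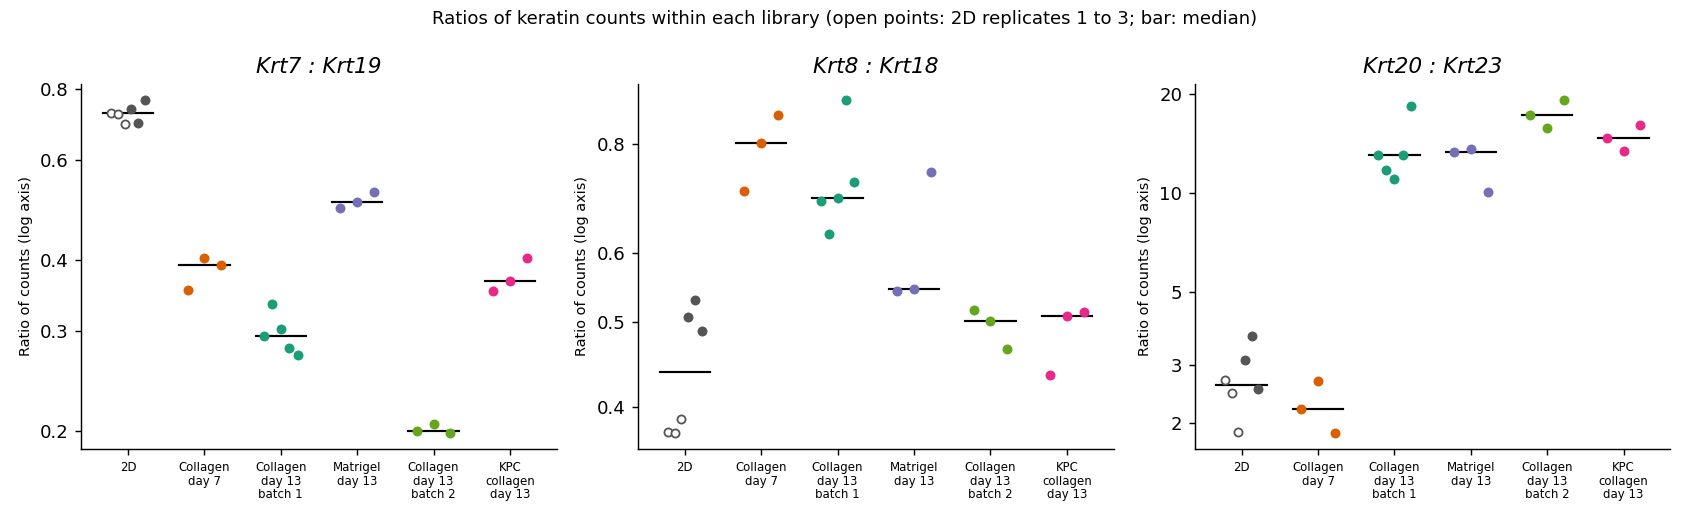
Ratios of raw counts within each library (vertical, log axis) by group (horizontal), 1 point per library, open for 2D replicates 1 to 3, with a bar at the group median. Krt7 to Krt19 is 0.693 to 0.765 in both 2D sets and 0.199 to 0.206 in second-batch KC organoids, and Krt20 to Krt23 is 10.1 or higher in every day 13 library and 3.68 or lower elsewhere.

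The other keratins were sparse. Of the 28 other keratin genes measured, 22 had a count and 4 (Krt10, Krt13, Krt14 and Krt79) passed the filter, and the 28 together summed to 25 to 61 CPM in any library. Krt5, Krt15 and Krt16, of stratified epithelia, reached at most 0.436, 0.787 and 1.17 CPM, and Krt17 was at 0 in all 23 libraries, where a count of 0 allows up to 3 counts. Krt14, of the same epithelia, had counts in all 23 libraries, at up to 17.1 CPM. Of the 4 tested, 3 were higher at day 7 than at day 13, where 28.1% of all genes were. Krt13, a keratin of internal stratified epithelia, differed most, at 20.4 CPM at day 7 against 5.61 at day 13 (log2 1.84, adjusted p = 3.83e-06), and Krt79 least of the 3, at 4.58 against 2.42 CPM (log2 0.95, adjusted p = 0.0647). In 2D cells 3 were lower than at day 7, as with either set left out, where 24.8% of all genes were lower, and in Matrigel against collagen none was called.

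The partners of the filament went several ways between day 7 and day 13 while the keratins themselves split. Of all tested genes 28.1% were higher at day 7 and 27.1% lower. Of 8 tested desmosome genes 6 were lower at day 7 and none was higher, with a median log2 difference of -0.97, against 0.01 for all tested genes and 0.28 for the 7 keratins. Dsc2, a desmosomal cadherin, was lowest, at 2.78 CPM at day 7 against 20.9 at day 13 (log2 -2.83, adjusted p = 3.65e-06), and Jup, the desmosomal plaque protein plakoglobin, was the called one nearest to 0, at 142 CPM at day 7 against 208 at day 13 (log2 -0.56, adjusted p = 0.00192). Of 7 tested plakins and hemidesmosome genes 5 were higher at day 7 and 1 was lower. Plec, the linker plectin, was highest, at 427 CPM at day 7 against 190 at day 13 (log2 1.17, adjusted p = 7.43e-06), and Evpl, the linker envoplakin, was the lower one, at 4.05 against 7.60 CPM (log2 -0.90, adjusted p = 0.0205). Of 6 other intermediate filament genes tested 4 were higher at day 7, from Nes, nestin, at log2 1.35 (adjusted p = 1.21e-06) to Lmnb1, lamin B1, at log2 1.99 (adjusted p = 2.15e-10).

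Of 7 genes of keratin-binding and keratin-regulating proteins, 1 was higher at day 7 and 2 were lower. Ywhaz, a 14-3-3 adaptor, was the higher one (log2 0.54, adjusted p = 0.000642), and Tgm2, a cross-linking transglutaminase, was the lowest (log2 -1.55, adjusted p = 0.000126). The ductal list was lower at day 7, with 8 of its 10 genes called lower and none higher. Its summed level was 4060 to 5749 CPM at day 7 and 9710 to 11557 CPM at day 13 in the first batch. Most of that sum was Spp1, osteopontin, at 3593 to 5294 and 7888 to 9882 CPM. The other 9 genes summed to 455 to 478 CPM at day 7 and 1675 to 1938 CPM at day 13, again without overlap. This is the direction of Krt20 and Krt80, which were called lower at day 7, and the opposite of Krt8, Krt18 and Krt23, which were called higher. The part of this difference in the keratin values was not tested.

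In 2D cells against day 7, where Krt8, Krt18 and Krt19 were lower, 6 of 7 plakins and hemidesmosome genes were lower too and none was higher, led by Plec (log2 -1.75, adjusted p = 2.74e-08), while 1 of 8 desmosome genes was called (Pkp4, a plakophilin, log2 -0.40, adjusted p = 0.0739). The share of all genes lower here was 24.8%. Without 2D replicates 1 to 3, 4 plakins and hemidesmosome genes were lower and 2 desmosome genes were higher in 2D cells, and without replicates 4 to 6, 7 and 3 of these lists were lower. In Matrigel against 2D cells all 7 tested plakins and hemidesmosome genes and 7 of 8 desmosome genes were higher, where 20.1% of all genes were, with median log2 differences of 0.95 and 1.17 against 0.57 for the 7 keratins and -0.02 for all tested genes. Perp, a desmosomal membrane protein, was the desmosome gene that was lower (log2 -0.30, adjusted p = 0.0592). Without 2D replicates 1 to 3 the counts higher were again 7 and 7, and without replicates 4 to 6 they were 6 plakins and hemidesmosome genes and 7 desmosome genes. In 2D cells against day 13, 6 of 8 desmosome and 5 of 7 plakin and hemidesmosome genes were lower, and none was higher, where 23.3% of all genes were lower. With either set left out 6 desmosome genes were lower, and 5 plakins and hemidesmosome genes without replicates 1 to 3 or 4 without replicates 4 to 6.

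In Matrigel against collagen, where Krt7 was the keratin called, Ppl, the linker periplakin, was the plakin called (log2 0.69, adjusted p = 0.0313) and Perp the desmosome gene (log2 -0.35, adjusted p = 0.0851). Ivl, involucrin, of the cornified envelope of squamous cells, was 61.8 against 14.1 CPM (log2 2.13, adjusted p = 1.87e-08), the only call among 4 tested basal and squamous genes. In KPC against KC, 2 of 8 desmosome genes and 2 of 7 plakin and hemidesmosome genes were lower and none was higher, where 10.4% of all genes were lower, with Ppl the lowest (log2 -1.33, adjusted p = 0.00046). Sfn, the 14-3-3 sigma protein that binds keratins, was higher in KPC, at 41.7 against 10.2 CPM (log2 2.03, adjusted p = 1.89e-05). Between the batches of KC organoids 6 of 7 plakin and hemidesmosome genes were higher in the second and none was lower, where 19.3% of all genes were higher, led by Evpl (log2 1.56, adjusted p = 3.34e-05).

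**Figure D4:**
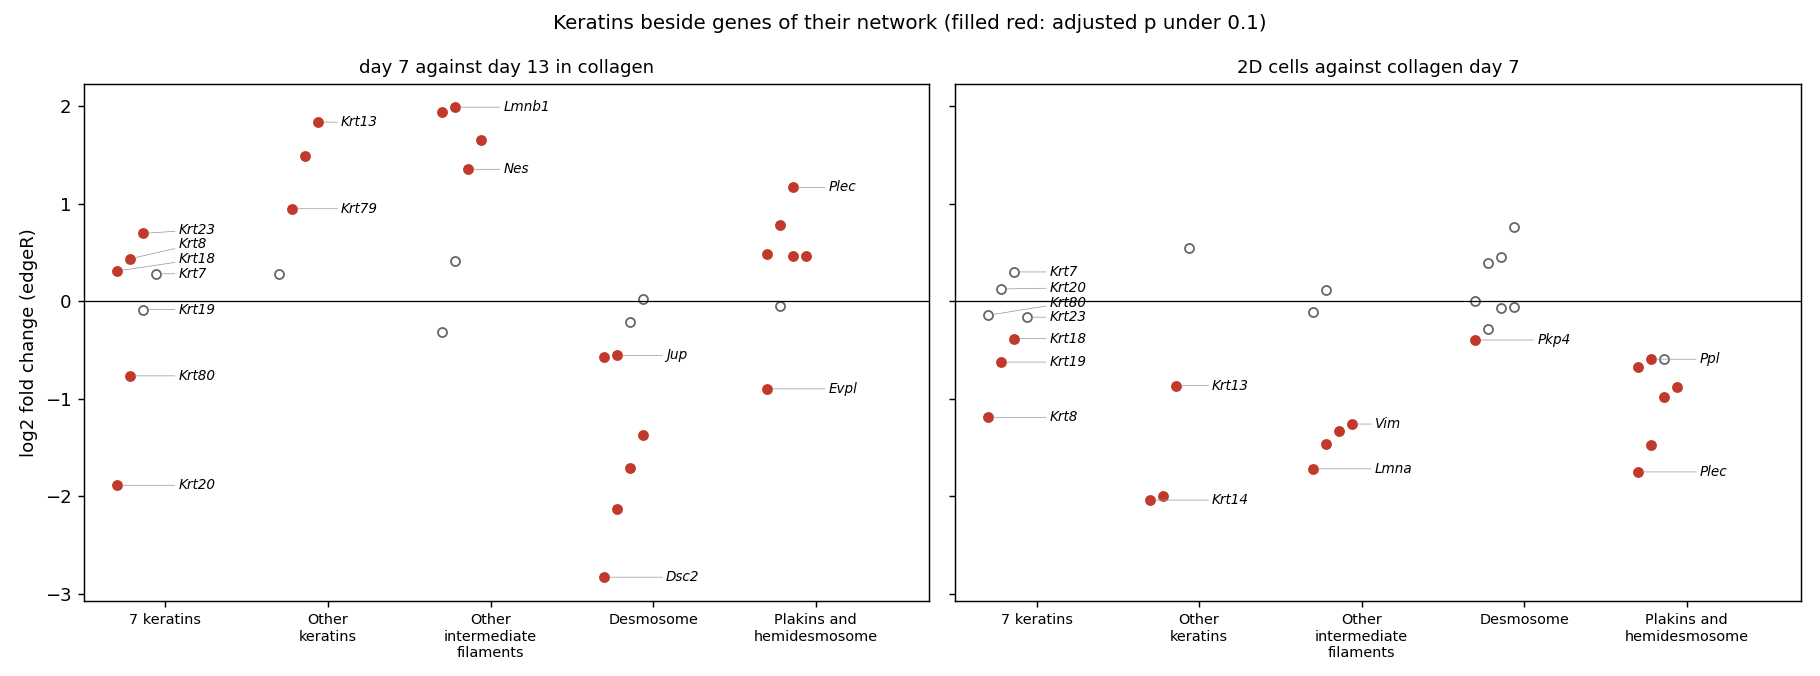
Log2 fold change (vertical) of the 7 keratins and of the tested genes of 4 lists (horizontal) for day 7 against day 13 in collagen (left) and 2D cells against day 7 (right), with 1 point per gene, filled red where the edgeR adjusted p was under 0.1. The keratins are all named, and of the lists the called genes with the highest and lowest value. At left 6 of 8 desmosome genes lie below 0 and called while 5 of 7 plakin and hemidesmosome genes lie above it.

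The keratin profiles over the 23 libraries were compared with those of the other 11143 tested genes by the root mean square (RMS) difference of log2 CPM after centering, a description over libraries that share groups and batches. Krt18 was nearest to Anxa2, an annexin, at 0.13, and then Taldo1, a transaldolase, at 0.15. Krt19 was nearest to Tagln2, a transgelin, at 0.17 and Usp48, a deubiquitinase, at 0.19, Krt7 to Prdx6, a peroxiredoxin, at 0.17 and Chka, a choline kinase, at 0.20, and Krt8 to the actin-binding genes Actn4 and Wdr1, both at 0.23. Krt20, the most variable, was nearest to Arhgef16, a guanine nucleotide exchange factor, at 0.27 and Mmp15, a membrane-bound metalloproteinase, at 0.28. The distances do not rank the closeness of match between keratins, as the SD of the centered profile ran from 0.19 for Krt18 to 0.97 for Krt20.

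Krt23 was nearest to Anapc4 and Snrpb, both at 0.15, and Krt80 to Gpi1 at 0.26 and Adam15 at 0.27. No keratin had another of the 7 among its 2 nearest genes. The share of genes nearer than a partner depends on the gene it is counted from. Krt8 and Krt18, which form a filament together, were 0.36 apart, with 2.37% of genes nearer to Krt8 than Krt18 was and 22.6% nearer to Krt18 than Krt8 was. Krt18 was nearer to Krt7, at 0.32, than to Krt8. The distance also depends on the spread of each gene, and the SD of the centered profile was 0.19 for Krt18, 0.31 for Krt7 and 0.47 for Krt8. A smaller distance therefore need not mean a more similar course, and correlations of these profiles were not tested. Krt20 and Krt23, adjacent on the chromosome, were 1.24 apart, with 96.4% of genes nearer to Krt23 than Krt20 was and 75.8% nearer to Krt20 than Krt23 was.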

How the data were processed

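The authors primed poly(A) RNA with UMI-bearing oligo-dT, amplified 3'-end fragments and counted with the Drop-seq pipeline 1.0 on GRCm38 and GENCODE M25; the aligner is not given in the sources used here. The deposited values are whole-number UMI counts per gene, not normalized, for 27207 genes in 23 libraries. Depth ran from 1221451 to 2471058 counts per library.

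Counts were tested in R 4.3.3 in edgeR 4.0.16 (glmQLFit and glmQLFTest), after TMM normalization and filterByExpr (11144 genes kept), in 1 fit with the 6 groups as a factor. Genes with a Benjamini-Hochberg adjusted p under 0.1 over all tested genes, the false discovery rate used in the study, were called. CPM uses TMM factors, and log2 profiles a prior count of 2. The pipeline was tested on simulated counts. Alternatives were DESeq2 1.42.0, its size factors, library size alone, other filters, a threshold of 0.05, the compared groups alone, all 8 KC collagen day 13 libraries, the replicate number as a block and each library left out. Leaving out 2D replicates 1 to 3 or 4 to 6 was chosen after seeing the data.

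The keratins and the gene lists were chosen with earlier results of these data known. All 7 keratins are named. Of each further list the counts called are given, with at most the called genes of highest and lowest fold change, and for each keratin the 2 nearest genes. The promoter motifs were common elements chosen with the sequences at hand. Positions are from GENCODE M21, on the same build. Some listed genes were not analysed here, and other engineered alleles of the lines are not reported here.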

Additional observations from a re-analysis of the deposited data

How the results depend on the processing

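Over the alternatives, 398 values for single keratins kept their direction and call, 17 lost a call, 18 gained one and 22 changed sign. With each library left out in turn the numbers were 383, 14, 5 and 11. The causes were not tested unless said. Keratins called in Matrigel against collagen numbered 2 with DESeq2, in place of 1. Library size alone gave 3 for day 7 against day 13, in place of 5, with Krt8 and Krt18 lost. It gave 1 for the second against the first batch, in place of 3. That scaling moved the median of all genes by -0.15, -0.20 and 0.26 in the comparisons with 2D cells, 0.12 for KPC against KC and -0.14 between batches. For 2D against day 7 the count was 5 without 2D replicates 1 to 3, in place of 3. For KPC against KC it was 1 with at least 10 counts in every library, where Krt80 was no longer tested, and 5 with the compared groups alone, in place of 2. Between batches a threshold of 0.05 gave 1, and leaving out single libraries gave 1 to 4.

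All sign changes were in values not called. In Matrigel against collagen, Krt8 was 0.043 with library size alone, 0.030 with the filter of 10 counts, 0.15 with the replicate block, 0.00965 with the compared groups alone and 0.076 with all 8 KC libraries, and -0.20 to 0.087 with libraries left out. Krt20 was 0.033, 0.013 and 0.14 under the first 3 of these, and -0.11 to 0.067 with libraries left out. Krt19 at day 7 against day 13 was 0.021 with the block. In 2D against day 7, Krt20 was -0.0102 with library size alone, -0.11 with the block and -0.17 without 2D replicates 4 to 6, where Krt7 was -0.023. Without 2D replicates 1 to 3, Krt18 was 0.00445 in 2D against day 13 and Krt7 -0.17 in Matrigel against 2D. With library size alone, Krt23 was 0.0073 in KPC against KC and Krt7 -0.018 between batches. Krt23 between batches was 0.016 with DESeq2, 0.017 with its size factors, 0.0083 with no filter, 0.0069 with the filter of 10 counts and 0.0074 with the compared groups alone, and -0.10 to 0.11 with libraries left out.

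Deviations from the group means correlated weakly between samples with the same replicate number (-0.119 to 0.188). With 3 to 5 pairs in a comparison this does not exclude pairing. For 2D cells the deviations were taken from the mean of all 6 libraries, so the difference between the sets could hide it. With the replicate block the counts of calls were 1, 6, 3, 6, 6, 3 and 3 in the order of the comparisons in the differences plot, in place of 1, 5, 3, 6, 6, 2 and 3. Depth limits Krt80, at 5 to 40 counts a library, more than the other 6 keratins.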
